A study of Mus musculus with 4 samples.

Results

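The 9 genes described here encode a short branch of the Wnt pathway: the secreted R-spondins Rspo1, Rspo2, Rspo3 and Rspo4, their receptors Lgr4, Lgr5 and Lgr6, and the ubiquitin ligases Rnf43 and Znrf3. They were chosen by gene symbol from the 32285 genes of the deposited tables, and each symbol matched 1 gene. Their expression was followed in single cells of the developing mouse molar, across cell classes, 2 stages and both jaws.

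Wnt ligands signal through Frizzled receptors and Lrp co-receptors. Znrf3 and Rnf43 are membrane ubiquitin ligases that tag Frizzled receptors for removal, so they dampen the response of a cell to Wnt. R-spondins bind an Lgr receptor and a ligase together, the ligase is cleared from the membrane, and Frizzled receptors accumulate; R-spondins are therefore Wnt enhancers that need a Wnt ligand to act on. Rnf43, Znrf3 and Lgr5 are themselves known as targets of beta-catenin signalling in several tissues, and in the tooth the pathway is used by both the epithelium, which makes enamel, and the neural crest-derived mesenchyme, which makes dentin, pulp and the attachment of the tooth.

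Molar tooth organs of wild type C57BL/6J mice (genotype label WTB6) were dissected from the upper (maxillary) and lower (mandibular) jaw at E15.5 (embryonic day; the sample titles give day 15) and P1 (postnatal day; the protocol gives P0/P1). For each stage and jaw, 6 tooth organs were pooled into 1 library of droplet 3' single-cell RNA-seq, so there were 4 libraries and no replicates. No transgene or treatment was used and no animal can be told from another. The tables held 10885, 7947, 18707 and 19401 cell barcodes for the E15.5 maxillary, E15.5 mandibular, P1 maxillary and P1 mandibular libraries; wherever 4 values follow each other below, the libraries stand in this order.

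After barcodes with under 1000 unique molecular identifiers (UMIs, the count of captured transcripts), likely doublets and low-quality barcodes were removed, 7703, 5050, 12652 and 7897 cells remained. A cell held a median of 10265, 12973.5, 4470.5 and 11210 UMIs. The P1 maxillary cells were thus the shallowest. The 2 P1 tables shared 7131 barcodes, whereas the other 5 pairs of libraries shared 28 to 70. In these shared barcodes the maxillary table held a nearly fixed multiple of the mandibular UMIs, with a median log2 ratio of 2.07 and a 5th to 95th percentile range of 2.0 to 2.18. The shared barcodes were kept in the maxillary library and dropped from the mandibular library, and which jaw these cells came from cannot be told apart. They made up 44.5% of the kept P1 maxillary cells, but 98.8% of its dental papilla-like and 98.9% of its ameloblast-like cells. Within the shared barcodes the 2 tables gave much the same levels in CPM (counts per 1000000, here the UMIs of a gene scaled to 1000000 UMIs of the same cells), for example 282 and 285 CPM for Rspo2 and 184 and 178 for Rspo4, and P1 maxillary levels of epithelium, mesenchyme and follicle without them are given below. They also made up 97.3% of its odontoblast/osteoblast-like and 76.1% of its dental epithelium-like cells, for which no value without them is given.

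Each library was clustered on its own, leaving out the 9 genes, and marker lists gave the clusters their names; because the clusters were rebuilt from the counts, every class is called "-like". Epithelium held 686, 94, 2092 and 1811 cells and mesenchyme 5011, 2749, 8159 and 4558. Epcam, an epithelial adhesion molecule, was at 525, 573, 523 and 432 CPM in epithelium and at 2.96, 2.60, 3.73 and 3.21 in mesenchyme. Dental papilla-like cells numbered 284, 81, 2669 and 2099 and expressed Barx1 at 904, 165, 724 and 540 CPM. Amelx, the main enamel matrix protein, reached 34143 and 41835 CPM in the ameloblast-like cells of the P1 maxillary and mandibular libraries, and Dmp1, a matrix protein of bone and dentin, reached 637 and 1083 in their odontoblast/osteoblast-like cells, against 2.27 and 3.93 in the ameloblast-like cells. Dspp, the dentin protein of odontoblasts, did not set these classes apart, at 533 and 2436 CPM in odontoblast/osteoblast-like and 2258 and 1766 CPM in ameloblast-like cells. The P1 maxillary library also held 378 gland or nasal epithelium-like and 622 neuron-like cells, so its tissue reached beyond the tooth.

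A 3' UMI count is not scaled to gene length. How well the 3' end of each gene is captured, and how many of its UMIs come from introns, was not tested, so levels of different genes set side by side are UMI levels. There was 1 library per stage and jaw, and no difference was tested. A 95% interval covers counting error only. It comes from the exact Poisson distribution for a level, the exact binomial for a log2 ratio and the Clopper-Pearson method for a share of cells. A gene was counted as higher or lower when its CPM differed by at least 2-fold, the interval of the log2 ratio lay on one side of 0, and both classes together held at least 10 UMIs; the share of all measured genes that met the same rule is given as background. In a pool of cells, fewer expressing cells and less RNA per cell cannot be told apart.

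Rspo4 and Rspo1 differed in opposite directions between the stages in dental papilla-like cells, although the maxillary Rspo1 ratio rests on the shared barcodes. The 250 bases upstream of their starts are shown with every CG dinucleotide in capitals (RefSeq promoters, build GRCm38.p6, both on the plus strand, written 5' to 3'). Rspo4 lies at chr2:151842927-151874668 and its upstream stretch at chr2:151842677-151842926; Rspo1 lies at chr4:124986430-125009099 and its stretch at chr4:124986180-124986429.
Rspo4: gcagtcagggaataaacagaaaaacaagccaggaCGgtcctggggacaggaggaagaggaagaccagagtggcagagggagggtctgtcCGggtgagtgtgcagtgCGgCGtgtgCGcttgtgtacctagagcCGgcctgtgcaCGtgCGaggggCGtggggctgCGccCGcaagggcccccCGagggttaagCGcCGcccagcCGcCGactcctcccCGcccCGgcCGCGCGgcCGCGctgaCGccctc
Rspo1: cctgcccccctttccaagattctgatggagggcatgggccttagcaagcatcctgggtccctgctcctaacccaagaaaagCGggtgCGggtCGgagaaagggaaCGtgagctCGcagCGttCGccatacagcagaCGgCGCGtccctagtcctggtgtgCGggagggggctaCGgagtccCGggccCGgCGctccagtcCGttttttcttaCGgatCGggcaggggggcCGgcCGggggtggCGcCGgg
The Rspo4 stretch held 24 CG dinucleotides and the Rspo1 stretch 22, against a median of 6 over 32851 RefSeq promoters. The letters CTTTGA, the core bound by TCF and LEF factors, were in neither stretch on either strand, nor in the upstream stretches of the 3 other genes with an entry (Lgr4, Lgr6 and Rnf43); 13.8% of all promoters held them. Rspo2, Rspo3, Lgr5 and Znrf3 had no entry.

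In the annotation of the mm10 build (GENCODE vM21) the other ligand genes lie at chr15:43020794-43170826 on the minus strand (Rspo2) and chr10:29452416-29535867 on the minus strand (Rspo3). The receptors lie at chr2:109917647-110014257, plus strand (Lgr4), chr10:115450311-115587780, minus strand (Lgr5), and chr1:134983301-135105276, minus strand (Lgr6), and the ligases at chr11:87662722-87735539, plus strand (Rnf43), and chr11:5276324-5444847, minus strand (Znrf3). All 9 are protein-coding. Rspo3 and Rnf43 each overlap 1 further gene on their own strand, so a part of their reads could be assigned elsewhere, and Rspo1, Rspo4 and Lgr5 each overlap a gene on the opposite strand, for Rspo4 the antisense gene Rspo4os.

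The 4 ligands were expressed in mesenchyme and close to absent from epithelium. Rspo2, a limb and lung morphogenesis factor also active in craniofacial tissue, was at 38.4, 45.8, 344 and 185 CPM in mesenchyme and at 3.17, 0.445, 0.910 and 1.96 CPM in epithelium. Rspo1, known for ovary determination, was at 52.6, 19.4, 30.2 and 12.9 CPM in mesenchyme and at 0.365 to 1.78 CPM in epithelium. Rspo3, an angiogenic and placental R-spondin, was at 80.0, 55.4, 19.3 and 13.5 CPM in mesenchyme and at 0.137 to 2.51 CPM in epithelium. Rspo4, the R-spondin of nail growth, was at 0.890, 2.23, 231 and 172 CPM in mesenchyme, while the epithelium held 0 UMIs in the E15.5 maxillary library, which allows up to 0.279 CPM, and 0.445, 1.34 and 2.15 CPM in the others. Blood and immune-like cells, which should express none of the 4, held Rspo2 at 2.51, 0, 10.0 and 8.23 CPM and Rspo4 at 0, 0, 7.43 and 4.80 CPM. The epithelial levels of all 4 ligands at P1 lay below those of blood and immune-like cells and are read as background, although the source of these UMIs was not tested. At E15.5 dental epithelium-like cells of the maxillary library were above the blood and immune-like level for Rspo2, at 8.12 CPM (5.26 to 12.0). These 25 UMIs lay in 6 of 224 cells (2.68%).

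The receptors were split. Lgr4, the broadest receptor of the family, was found in both compartments at every stage, at 141, 96.6, 87.9 and 76.4 CPM in epithelium and 62.7, 62.0, 93.3 and 71.1 CPM in mesenchyme. Lgr5, the stem cell marker of gut and hair follicle, was at 60.6, 80.6, 13.8 and 14.6 CPM in epithelium and at 130, 46.8, 26.7 and 12.6 CPM in mesenchyme. Lgr6, a marker of skin and taste bud progenitors, was the lowest of the receptors at E15.5, with 17.1, 17.8, 12.3 and 7.40 CPM in epithelium and 12.3, 5.30, 33.3 and 25.3 CPM in mesenchyme. At P1 it was above Lgr5 in mesenchyme in both libraries, but without the shared barcodes the P1 maxillary mesenchyme had Lgr5 at 73.4 and Lgr6 at 14.0 CPM.

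Of the ligases, Rnf43 was found almost only in epithelium, whereas Znrf3 was found in both compartments. Rnf43 was at 61.4, 57.4, 46.3 and 48.6 CPM in epithelium and at 1.00, 2.43, 1.17 and 1.05 CPM in mesenchyme, the latter near the 0 to 2.97 CPM of blood and immune-like cells. Znrf3 was at 166, 171, 137 and 129 CPM in epithelium and at 56.3, 43.6, 75.6 and 73.2 CPM in mesenchyme, and at 9.88 to 27.1 CPM in blood and immune-like cells. Rnf43 supplied 25.1% to 27.4% of all ligase UMIs in epithelium over the 4 libraries, and 1.4% to 5.3% in mesenchyme.

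**Figure D1:**
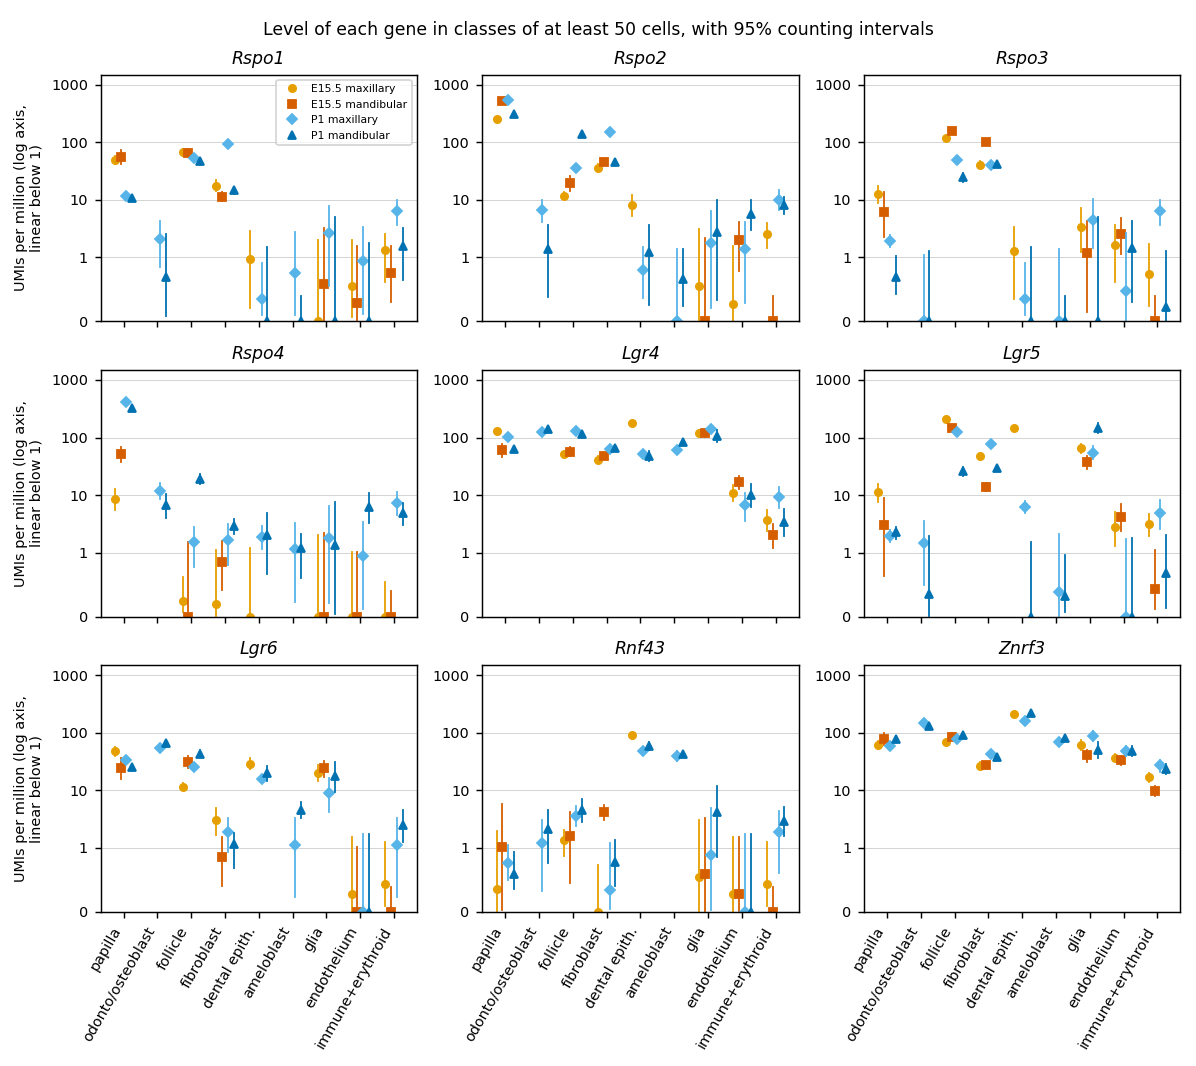
CPM (log axis, linear below 1) of each of the 9 genes in named classes of at least 50 cells, 1 marker per library with its 95% counting interval. Rspo2 and Rspo4 peak in dental papilla-like cells, Rspo3 and Lgr5 in dental follicle-like cells except in the P1 mandibular library, and Rnf43 is near 0 outside the epithelial classes.

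Set against each other within a library, epithelium and mesenchyme differed in most of the 9 genes. In the E15.5 maxillary library 3 were higher and 5 lower in epithelium, where 29.5% of all tested genes met the rule in either direction. In the E15.5 mandibular library 3 were higher and 3 lower (background 24.2%), in the P1 maxillary library 1 was higher and 5 lower (background 32.2%), and in the P1 mandibular library 1 was higher and 5 lower (background 32.5%). Without the shared barcodes the P1 maxillary counts were 1 higher and 4 lower (background 29.4%). The median log2 ratio of the 9 genes was -1.10, 0.64, -1.44 and -1.77, beside -0.04, 0.15, 0.00 and -0.09 over all genes tested.

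Rnf43 was higher in epithelium in all 4 libraries, with log2 ratios of 5.94 (interval 5.54 to 6.37), 4.56 (4.18 to 4.95), 5.31 (4.97 to 5.67) and 5.53 (5.16 to 5.92). Znrf3 was higher by 1.56 and 1.97 on the log2 scale at E15.5 but by 0.86 and 0.81 at P1, short of 2-fold. Rspo1, Rspo2 and Rspo3 were lower in epithelium in every library, by log2 ratios of -3.44 to -8.56. In the E15.5 mandibular library these rest on 4, 1 and 2 epithelial UMIs; with each cell thinned to 2000 UMIs the epithelium held none, and the Rspo1 ratio was then at most -0.15 and no longer met the rule. Rspo4 was lower in both P1 libraries, at -7.43 and -6.32. In the E15.5 maxillary library, where the Rspo4 epithelial count was 0, the log2 ratio was at most -1.67; with each cell thinned to 2000 UMIs the bound was 0.77 and the rule was no longer met.

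The receptors gave no common direction. Lgr5 was lower in epithelium in the E15.5 maxillary library, at a log2 ratio of -1.10 (-1.22 to -0.98), and was at 0.78 (0.56 to 1.00) in the mandibular library, where it went to -0.39 with cells of at least 2000 UMIs. Lgr6 was higher in epithelium in the E15.5 mandibular library, at 1.75, and lower in both P1 libraries, at -1.44 and -1.77; without the shared barcodes the P1 maxillary ratio was -0.96, short of 2-fold. Lgr4 was higher in epithelium only in the E15.5 maxillary library, at 1.17 (1.08 to 1.26), and lay within 0.64 of 0 in the other 3, although without the shared barcodes the P1 maxillary ratio was 0.97, or 1.08 with the class names held. The E15.5 mandibular epithelium was a single mixed cluster of 94 cells, led by the oral keratins Krt13, Krt5 and Krt14.

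**Figure D2:**
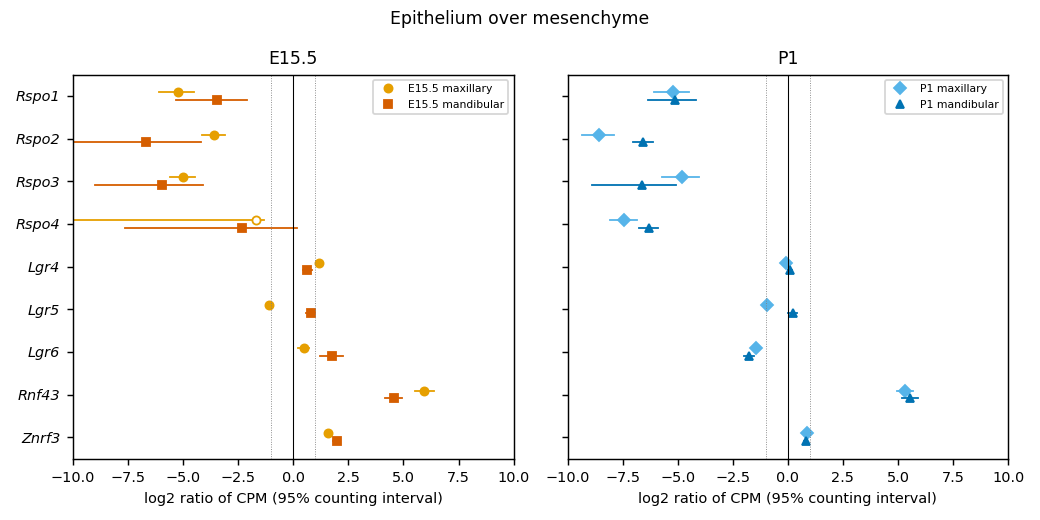
Log2 ratio of epithelial over mesenchymal CPM for each gene at E15.5 (left) and P1 (right), with 95% counting intervals; open markers are bounds from a count of 0, and dotted lines mark 2-fold. The 4 R-spondins lie left of 0, Rnf43 lies beyond 4 on the right in each library, and the Lgr genes scatter around 0.

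Dental papilla-like cells, the mesenchyme enclosed by the enamel organ that becomes pulp and odontoblasts, had the highest summed R-spondin level of the 2 dental mesenchymal classes. The 4 ligands together reached 328, 638, 975 and 653 CPM there, against 201, 243, 140 and 230 CPM in dental follicle-like cells. The follicle is the mesenchyme around the tooth that forms its attachment, and whether the follicle-like cells lie there was not tested. Papilla-like cells held 9.66% and 12.3% of the R-spondin UMIs of all mesenchyme in the E15.5 maxillary and mandibular libraries, where they were few, and 82.2% and 86.3% at P1. The P1 maxillary share rests on the shared barcodes. Without them and with the class names held, 32 papilla-like cells remained. These held 5 of 802 mesenchymal UMIs of Rspo1, 67 of 562 of Rspo2, 3 of 932 of Rspo3 and 38 of 51 of Rspo4. In papilla-like cells Rspo2 was at 257 (239 to 277), 524 (479 to 571), 551 (543 to 559) and 313 (307 to 320) CPM. Among all classes Rspo2 was highest in the papilla in each library, and the interval of the ratio to the next class lay above 0 each time; the next class reached 42.1, 46.0, 167 and 140 CPM.

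Rspo4 was in the papilla at both stages, but at very different levels: 8.61 (5.51 to 12.8), 51.3 (38.0 to 67.6), 411 (404 to 418) and 328 (322 to 335) CPM. Both P1 libraries lay above both E15.5 libraries. The next highest named class was the osteoblast-like cluster of the P1 mandibular library, at 52.9 CPM, and an unnamed mesenchymal group of the P1 maxillary library stood at 61.0 CPM, carried by a cluster led by Dach2, Smpd3 and Panx3 with 116 CPM. No other class passed 20 CPM.

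The composition of the ligand pool differed between the stages. Rspo2 made up 78.6% and 82.2% of papilla R-spondin UMIs in the E15.5 maxillary and mandibular libraries and 56.4% and 48.0% at P1, while Rspo4 made up 2.6% and 8.0% at E15.5 and 42.2% and 50.3% at P1. Rspo1 supplied 15% and 8.8% at E15.5 and 1.2% and 1.6% at P1. In the follicle Rspo3 led at E15.5, with 59.8% and 65.4%, followed by Rspo1 with 34.3% and 26.5%. At P1 Rspo1 led in the maxillary follicle with 37.9% and Rspo2 in the mandibular follicle with 60.8%. The leader in the maxillary follicle was not stable. Without the shared barcodes and with the class names held, Rspo3 led with 40.3%, beside 30.4% for Rspo1 and 29.1% for Rspo2; when the remaining cells were clustered again, the class lost 306 and gained 557 cells and Rspo2 led with 36.2%.

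**Figure D3:**
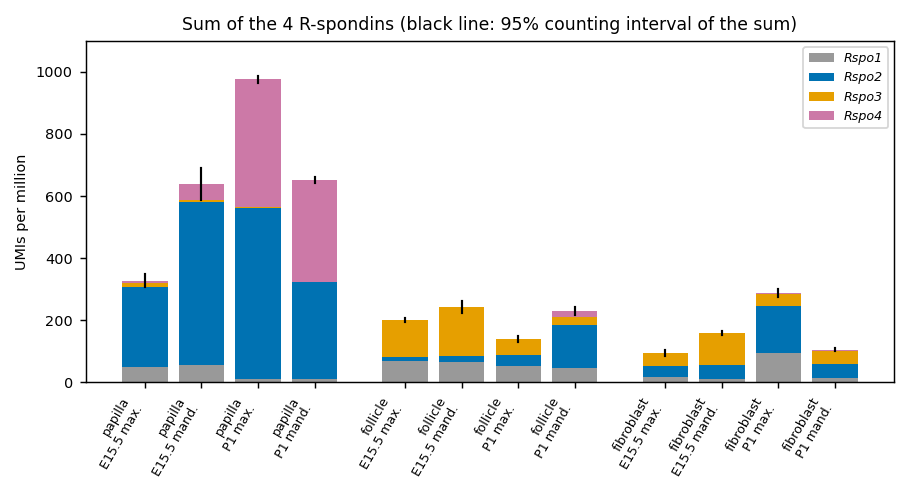
CPM of the 4 R-spondins, stacked, in dental papilla-like, dental follicle-like and fibroblast-like cells of each library; the black line is the 95% counting interval of the sum. Rspo2 is the largest part of the papilla bars at E15.5, Rspo2 and Rspo4 make up nearly all of them at P1, and the Rspo3 part is largest in the E15.5 follicle.

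By cells, 33.1%, 61.7%, 78.4% and 62.7% of papilla-like cells had a Rspo2 UMI and 5.99%, 23.5%, 78.6% and 77.2% a Rspo4 UMI, at medians of 9466.5, 11379, 12191 and 13800 UMIs per cell. In blood and immune-like cells the same shares were 0% to 2.68% for Rspo2 and 0% to 3.10% for Rspo4, at medians of 9691, 11016, 3977 and 7621.5 UMIs. After each cell was thinned to 2000 UMIs, both genes were found together in 23.5% of P1 maxillary and 9.94% of P1 mandibular papilla-like cells, and either gene in 72.7% and 62.0%. In the P1 mandibular library Rspo4 was detected in 30.9% (27.4% to 34.5%) of cells with Rspo2 and in 43.9% (41.3% to 46.6%) of cells without it. In the P1 maxillary library the shares were 48.1% and 46.6%, with overlapping intervals.

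The P1 papilla was made of 5 clusters per library, and the 2 ligands peaked in different ones. In the mandibular library the cluster led by Cntn6, Gabrg3 and Gldn held Rspo2 at 849 and Rspo4 at 165 CPM, and the cluster led by Csmd1, Stbd1 and Fabp7 held Rspo2 at 18.9 and Rspo4 at 417 CPM. The cluster led by Grik1 held both, at 308 and 699 CPM. The maxillary clusters led by the same genes gave the same order: the Gabrg3, Pappa and Lypd1 cluster had 1125 CPM of Rspo2 and 112 of Rspo4, the Csmd1 cluster 264 and 505 CPM, and the Grik1 cluster 701 and 663 CPM. Of the P1 maxillary papilla-like cells 98.8% were shared barcodes, so whether this order holds in both jaws cannot be told. The cycling clusters, led by the histone gene Hist1h1b, stood between the Csmd1 and Gabrg3 clusters in Rspo2, with 301 and 409 CPM in the mandibular and maxillary libraries, and held 152 and 148 CPM of Rspo4. The E15.5 papilla was 1 cluster per library, and both were led by genes that included Plppr1.

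**Figure D4:**
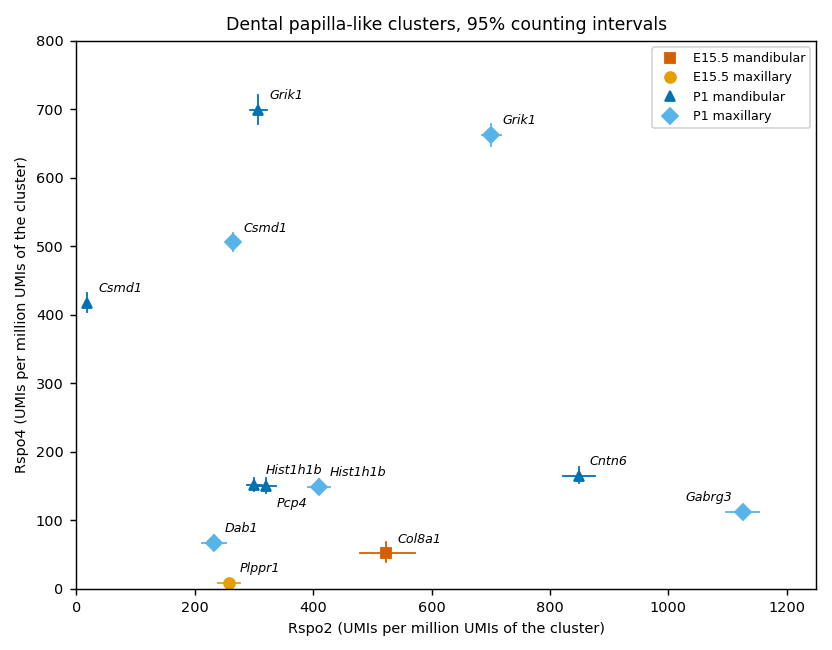
Rspo2 CPM (horizontal) against Rspo4 CPM (vertical) in each dental papilla-like cluster, named by its leading gene, with 95% counting intervals. Clusters with the most Rspo2 (Cntn6 and Gabrg3) have under 170 CPM of Rspo4, the Csmd1 cluster of the P1 mandibular library has Rspo4 but little Rspo2, and the 2 Grik1 clusters have both. Of the P1 maxillary cells shown, 98.8% are barcodes that the P1 mandibular table also held.

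Few receptor transcripts of the Lgr5 type were found beside these ligands. In papilla-like cells Lgr5 was at 11.1, 3.08, 1.95 and 2.25 CPM, while Lgr4 was at 129, 60.5, 101 and 63.1 CPM and Lgr6 at 47.7, 24.6, 33.4 and 26.0 CPM. Lgr4 thus supplied 68.6% to 74.1% of the Lgr UMIs of the papilla over the 4 libraries. Znrf3 was at 62.0, 77.9, 58.9 and 76.8 CPM there, and Rnf43 at no more than 1.03 CPM.

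Lgr5, low in the papilla, was higher in dental follicle-like cells. There it was at 207 (200 to 214), 144 (130 to 160), 125 (117 to 133) and 25.7 (21.3 to 30.8) CPM, and in the first 3 libraries no other class was higher. Rspo3 was at 120, 159, 49.0 and 24.6 CPM and Rspo1 at 68.9, 64.5, 53.0 and 46.4 CPM in the same cells. The log2 ratio of papilla over follicle for Lgr5 was -4.22, -5.55 (-7.84 to -3.99, from 3 UMIs in the papilla), -5.99 and -3.52 in the same order. That for Rspo3 was -3.26, -4.69, -4.67 and -5.15, and that for Rspo2 was 4.45, 4.74, 3.92 and 1.16. None of these 12 intervals held 0. The follicle name is a loose fit, as several of these clusters scored higher on general mesenchyme markers than on follicle markers. The E15.5 maxillary ones scored 0.752 to 0.807 on follicle markers, with none of these markers among their leading genes. A cluster of that library led by Spp1, Pdzrn4 and Mmp13 scored 0.967 but was left without a class name. The P1 follicle was uneven: the maxillary cluster led by Pappa2, C1qtnf3 and Itgbl1 had 283 CPM of Lgr5, the cluster led by Igfbp5, Pdzrn4 and Ibsp 29.7 CPM, and the latter had the higher Lgr4, at 189 against 90.5 CPM. In the mandibular library the cluster led by Hpse2, Nts and Sfrp2 held 303 CPM of Rspo2 and 0.838 CPM of Lgr5, from 1 UMI. Maxillary follicle-like cells at P1 had a median of 2991 UMIs, against 9672 in the mandibular library, and the part of depth in the difference was not tested.

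Of the mesenchymal clusters without a class name, 2 stood out for Lgr5 at E15.5, and where their cells lie was not tested. The maxillary cluster led by Eln, Prdm6 and Gdf10 had 332 CPM. The mandibular cluster led by Sgcz, Foxp2 and Ecrg4 had 407 CPM, and Rspo2 was also at 254 CPM there. Glia-like cells, marked by Sox10, carried Lgr4 at 119, 119, 141 and 106 CPM and Lgr5 at 64.5, 37.0, 54.9 and 147 CPM with R-spondins at no more than 4.43 CPM. Fibroblast-like cells of the connective tissue expressed Rspo3 at 40.9, 101, 40.3 and 42.3 CPM and Rspo2 at 35.7, 46.0, 151 and 45.6 CPM. Endothelium-like cells had Lgr4 at 6.60 to 16.9 CPM, the lowest among the non-blood classes shown in the plot of levels by class.

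At P1 Lgr6 was highest in the classes marked by genes of mineralized tissue. In odontoblast/osteoblast-like cells, which carried Dspp and Dmp1, it was at 54.3 and 66.0 CPM in the maxillary and mandibular libraries, and in the P1 mandibular osteoblast-like cluster at 96.6 CPM; the E15.5 maxillary osteoblast-like cells held 5.94 CPM. The odontoblast/osteoblast-like cells also had Lgr4 at 122 and 144 CPM and Znrf3 at 151 and 133 CPM. They held little R-spondin, with Rspo2 at 6.60 and 1.40 CPM and Rspo4 at 12.0 and 6.64 CPM, levels near those of blood and immune-like cells in the same libraries.

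Within epithelium, dental epithelium-like cells of the E15.5 maxillary library expressed all 5 receptors and ligases, with Lgr4 at 176 (161 to 191), Lgr5 at 147 (133 to 161), Lgr6 at 29.2, Rnf43 at 90.0 and Znrf3 at 215 CPM. At P1 the dental epithelium-like cells of the maxillary and mandibular libraries had Lgr4 at 51.8 and 47.9, Lgr6 at 15.6 and 19.8, Rnf43 at 49.1 and 59.9 and Znrf3 at 162 and 224 CPM. The classes differ in make-up: the maxillary one held 3 clusters and the mandibular one a single cluster of 177 cells led by Vwde. Lgr5 had 0 UMIs in the mandibular cluster, which allows up to 1.24 CPM, and was at 0.193 CPM, from 1 UMI, in the maxillary cluster led by Vwde and Igfbpl1. It was at 13.5 CPM in the maxillary cluster led by Odam and Krt17, where 3.27% of 398 cells had a UMI, and at 6.30 CPM over the maxillary class. In the ameloblast-like cells of P1 Lgr5 was at 0.378 and 0.327 CPM, with Rnf43 at 40.1 and 42.6 CPM and Znrf3 at 68.1 and 82.4 CPM. Suprabasal oral epithelium-like cells of the P1 mandibular library held Lgr5 at 68.5 CPM. Gland or nasal epithelium-like cells of the P1 maxillary library had the highest Lgr4 of any class there, at 223 CPM.

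Between stages in mesenchyme, the highest ratio of the 9 genes in both jaws was that of Rspo4 when the shared barcodes were kept. Without them the maxillary ratio of Rnf43 was higher, at 1.57 against 1.27. With them kept, 3 of the 9 genes were higher at P1 and 2 lower in the maxillary libraries, where 16.5% of all tested genes met the rule. In the mandibular libraries 3 were higher and 3 lower, with a background of 17.1%. Rspo2, Rspo4 and Lgr6 were higher at P1 in both jaws: Rspo4 by log2 ratios of 8.02 (7.61 to 8.45) and 6.27 (5.97 to 6.58) for the maxillary and mandibular jaw, Rspo2 by 3.16 and 2.02, and Lgr6 by 1.44 and 2.25. Rspo3 and Lgr5 were lower in both, Rspo3 at -2.05 and -2.04 and Lgr5 at -2.28 and -1.89. Rnf43 was lower at P1 in the mandibular jaw alone, at -1.20 and from few UMIs. Rspo1, Lgr4 and Znrf3 differed by less than 2-fold. The median log2 ratio of the 9 genes was 0.42 and 0.20, beside 0.01 and 0.04 over all genes.

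The P1 mesenchyme held far more papilla-like cells, with 2669 of 8159 and 2099 of 4558 cells against 284 of 5011 and 81 of 2749 at E15.5, so the same comparison was made within the papilla. In the maxillary papilla 2 genes were higher and 3 lower at P1 (background 12.3%), and in the mandibular papilla 1 was higher and 2 lower (background 11.1%). Rspo4 stayed higher in both jaws, at 5.58 (5.0 to 6.22) and 2.68 (2.28 to 3.11), and Rspo1 and Rspo3 were lower in both, Rspo1 at -2.07 and -2.40 and Rspo3 at -2.70 and -3.15. Rspo2 was at 1.10 (0.99 to 1.21) in the maxillary and -0.74 (-0.87 to -0.61) in the mandibular papilla. With the shared barcodes added to the mandibular papilla under the class they had in the maxillary table, Rspo2 there was at 365 CPM in place of 313 and the ratio to E15.5 at -0.52. When the mandibular table was clustered again with these barcodes, 1000 of the 2099 unshared papilla-like cells left the class, and Rspo2 was at 516 CPM, a ratio of -0.02; the barcodes and the class membership both changed in that value. Lgr5 was lower in the maxillary papilla, at -2.51, and Lgr6 was within 2-fold in both, at -0.52 and 0.08. Within follicle-like cells Rspo2 was higher at P1 by 1.63 and 2.83 and Rspo3 lower at -1.29 and -2.69. Of the 9 genes 5 were higher and 1 lower there in the maxillary library (background 6.2%), and 3 were higher and 2 lower in the mandibular library (background 14.5%). Without the shared barcodes 2 of the 8 with enough UMIs were higher in the maxillary follicle and none lower (background 7.68%).

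Without the shared barcodes the P1 maxillary library, clustered again, held no papilla-like class. With the class names held, 32 papilla-like cells remained, with Rspo2 at 418 CPM from 67 UMIs and Rspo4 at 237 CPM from 38 UMIs. At E15.5 Rspo2 was at 257 CPM and Rspo4 at 8.61 CPM, so Rspo2 was then short of 2-fold and Rspo4 stayed past it. Rspo1 was at 31.2 CPM from 5 UMIs and Rspo3 at 18.7 CPM from 3 UMIs in the 32 cells, against 49.1 and 12.5 CPM at E15.5. Counts this low cannot show whether Rspo1 and Rspo3 differed between the stages. No Lgr5 value is given for the 32 cells, and the lower call of Lgr5 comes from the same class, 98.8% of whose cells were shared barcodes. The calls of Rspo1, Rspo2 and Rspo3 in the maxillary papilla thus rest on the shared barcodes. After clustering again its mesenchyme had Rspo1 at 67.3, Rspo2 at 51.6, Rspo3 at 73.5 and Rspo4 at 2.15 CPM, Lgr4 at 78.8, Lgr5 at 73.4 and Lgr6 at 14.0 CPM, and Rnf43 at 2.97 and Znrf3 at 66.1 CPM. The Rspo1 ratio to E15.5 went from -0.80 to 0.36. In all, 2 of the 9 genes differed 2-fold from E15.5 (background 5.67%), Rspo4 at a log2 ratio of 1.27 and Rnf43 at 1.57, so the maxillary stage differences above rest on cells whose barcodes are also in the mandibular table. Its epithelium then had Lgr4 at 155, Lgr5 at 40.2, Lgr6 at 7.24, Rnf43 at 42.5 and Znrf3 at 110 CPM, and 2, 4, 3 and 0 UMIs of Rspo1 to Rspo4. With the class names held instead, Lgr5 was at 37.8 CPM in epithelium and 73.9 in mesenchyme and Rspo2 at 48.2 CPM in mesenchyme, and the same number of the 9 genes, 2, differed 2-fold from E15.5 in mesenchyme (background 5.8%). Under held names 1 of 8 did in epithelium (background 20.9%) and 2 of 8 in the follicle (background 4.41%), and 6 of 9 differed between the jaws in mesenchyme (background 15.8%). The follicle-like cells then had Rspo1 at 59.6, Rspo2 at 57.0, Rspo3 at 78.9, Lgr4 at 98.0, Lgr5 at 133, Lgr6 at 15.4, Rnf43 at 6.27 and Znrf3 at 72.7 CPM and 2 UMIs of Rspo4, and Rspo3 there was within 2-fold of E15.5. The P1 mandibular values come from unshared barcodes. With the shared ones added under held names, its papilla-like cells had, beside the Rspo2 level above, Rspo1 at 10.6 in place of 10.7 CPM and Rspo4 at 342 in place of 328 CPM.

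In epithelium Lgr5 was the gene lower at P1 in both jaws, at log2 ratios of -2.13 (-2.35 to -1.92) and -2.46 (-2.73 to -2.19). Without the shared barcodes the maxillary ratio was -0.59, from 40.2 against 60.6 CPM, short of 2-fold, and 1 of the 8 genes with enough UMIs met the rule (background 16.6%). In the maxillary jaw 1 gene was higher and 3 lower (background 21.4%), and in the mandibular jaw, where 8 genes had enough UMIs, none was higher and 3 were lower (background 16.9%); apart from Lgr5 and the mandibular Lgr6, at -1.27, these were R-spondins with at most 3.17 CPM at either stage. Rnf43 was at -0.41 and -0.24 and Znrf3 at -0.28 and -0.41, both within 2-fold. The epithelium of the 4 libraries held different clusters, among them a P1 mandibular cluster of 338 cells with a median of 1639 UMIs.

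**Figure D5:**
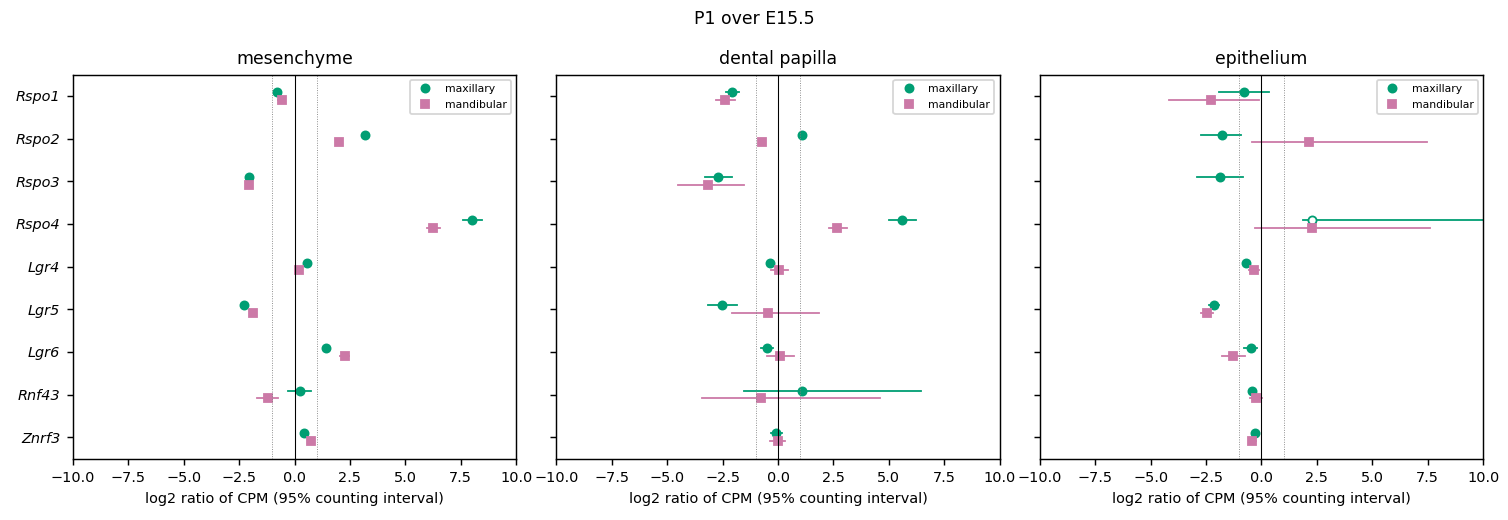
Log2 ratio of P1 over E15.5 CPM in mesenchyme, dental papilla-like cells and epithelium for each jaw, with 95% counting intervals; an open marker is a bound from a count of 0 and dotted lines mark 2-fold. Rspo4 lies furthest right in mesenchyme and papilla in both jaws, Rspo3 lies left of -1 in both, and Lgr5 lies left of -1 in mesenchyme and epithelium.

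Between jaws, in E15.5 mesenchyme 3 of the 9 were higher in the maxillary library and 2 lower (background 9.51%), and at P1 2 were higher and none lower (background 8.21%). Rspo1 was higher in maxillary mesenchyme at both stages, by log2 ratios of 1.44 and 1.22, and so was Lgr5, by 1.47 and 1.08. Within the papilla 2 genes were higher and 2 lower at E15.5 among the 8 with enough UMIs (background 9.65%), and 1 was higher and none lower at P1 (background 6.82%). Rspo1 did not pass 2-fold between the jaws there, at -0.20 (-0.66 to 0.28) and 0.12 (-0.09 to 0.34), nor within the follicle, at 0.09 and 0.19. The P1 papilla value rests on the shared barcodes. Without them and with the class names held, Rspo1 was at 31.2 CPM in the maxillary papilla, against 10.7 CPM in the mandibular papilla. The 31.2 CPM come from 5 UMIs in 32 cells, too few to place the ratio. In the follicle 1 of the 8 genes with enough UMIs was lower in the maxillary library at E15.5 and none higher (background 5.15%), and at P1 1 was higher and 2 lower (background 9.77%). Without the shared barcodes and with the class names held, Rspo3 was at 78.9 against 24.6 CPM and Lgr6 at 15.4 against 43.2 CPM in the P1 follicle, both past 2-fold. After clustering again Rspo2 was at 89.5 against 140 CPM there, short of 2-fold. In P1 mesenchyme, with the shared barcodes dropped from both P1 libraries, 6 genes differed between the jaws (background 15.6%), with Rspo1 at 2.38, Rspo2 at -1.84 and Rspo4 at -6.32.

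Other genes of the pathway were counted from 5 lists with 48 genes. Comparing epithelium with mesenchyme, 14 of the 43 with enough UMIs in both E15.5 libraries were higher and 7 lower in both, and of 44 at P1 13 were higher and 14 lower. Of all genes tested in both libraries 8.08% were higher and 9.37% lower at E15.5, and 9.44% and 14.3% at P1. At P1 10 of 43 were higher and 10 lower without the shared barcodes, beside 6.55% and 9.38% of all genes. Of the Wnt ligands more were higher than lower in epithelium: 8 of the 15 counted in the E15.5 maxillary library were higher and 3 lower, 8 and 3 of 14 in the E15.5 mandibular, 9 and 5 of 16 in the P1 maxillary and 9 and 4 of 17 in the P1 mandibular library. Their median log2 ratios were 3.15, 1.71, 1.67 and 1.87. Of all tested genes 13%, 12.5%, 15% and 12.3% were higher and 16.5%, 11.7%, 17.2% and 20.2% lower. Wnt4 was at 274 and 252 CPM in E15.5 epithelium and 9.69 and 7.0 CPM in mesenchyme, and Wnt3a at 67.7 and 81.3 CPM in P1 epithelium and 0.184 and 0.418 CPM in mesenchyme. The P1 maxillary epithelium had Wnt3a at 7.57 CPM without the shared barcodes. Fzd6, a Frizzled receptor of planar polarity, was higher in epithelium by 3.96 and 4.20 at E15.5 and 2.75 and 2.36 at P1 on the log2 scale, and Wnt7b by 5.31 and 4.24 at E15.5.

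On the mesenchymal side at P1, Notum, the secreted enzyme that inactivates Wnt ligands, was at 63.2 and 63.0 CPM in mesenchyme against 1.61 and 1.96 CPM in epithelium. The maxillary levels of Notum without the shared barcodes were 5.29 CPM in mesenchyme and 2.96 CPM in epithelium. Tcf7, a transcription factor of the pathway, and Fzd1 were also lower in epithelium, Tcf7 by log2 ratios of -2.32 and -2.92 and Fzd1 by -2.84 and -2.86. At E15.5 these were Nkd1, a feedback inhibitor, at -2.73 and -1.41, and Gpc3, a heparan sulfate proteoglycan, at -1.18 and -1.69. The 3 Dishevelled adaptors stayed within 2-fold in all 4 libraries.

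Between stages in mesenchyme, 10 of the 43 genes tested in both jaws were higher and 2 lower at P1, and in epithelium 4 of 43 were higher and 7 lower. Of all genes tested in both jaws 6.79% were higher and 2.57% lower in mesenchyme, and 4.54% and 4.07% in epithelium. Notum was higher in P1 mesenchyme by log2 ratios of 4.16 and 5.04, Wnt6 by 3.68 and 5.24 and Bambi, a decoy receptor for BMP that is also a beta-catenin target, by 3.35 and 3.21. In epithelium Wnt3a was higher by 2.89 and 2.42, Wnt6 by 2.18 and 2.60 and Bambi by 4.29 and 1.81, while Lef1, a partner of beta-catenin, was lower at -1.62 and -1.20. The maxillary side of these counts rests largely on the shared barcodes. Without them none of the 40 genes tested in mesenchyme was higher or lower in both jaws, beside 1.19% and 0.47% of all genes, and in epithelium 2 of 42 were higher and 4 lower, beside 1.68% and 2.06%. In maxillary mesenchyme Notum was then at a log2 ratio of 0.58, Wnt6 at -0.07 and Bambi at 0.32, all within 2-fold. In maxillary epithelium Wnt3a was at -0.27 and Wnt6 at -0.59, also within 2-fold, while Bambi at 2.16 and Lef1 at -2.28 still met the rule. Between jaws in mesenchyme, Wnt16 was the 1 gene of the 41 tested higher in the maxillary library at both stages and none was lower at both, where 1.5% and 1.33% of all genes were. With those barcodes dropped, Wnt16, Sp5 and Apcdd1 were higher at both stages, 3 of 40, and none was lower, beside 2.11% and 1.14% of all genes.

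Over 62 points, each a class of at least 50 cells in 1 library, the genes most like each of the 9 were taken by Pearson correlation of log2(CPM + 1). The points share libraries, depth and in part cells of 1 pool, so the values are descriptions. Rspo4 was most like Fgf3 (0.88), a growth factor of the papilla and among the papilla markers, then Sall3 and Sp9. Rspo3 was most like Sfrp2 (0.91), a secreted Wnt modulator, Rspo2 like Twist2 (0.88), a mesenchymal transcription factor, and Rspo1 like Dio3 (0.87) and Osr2 (0.86). Rnf43 was most like the epithelial splicing factor Esrp1 (0.94), itself a marker of epithelium, Lgr5 like the hyaluronan synthase Has2 (0.77), Lgr6 like Grik4 (0.84), Lgr4 like Mettl26 (0.89) and Znrf3 like Aopep (0.90). Among the 9 genes the closest pairs were Rspo1 with Rspo3 (0.84) and Lgr4 with Znrf3 (0.75), and Rspo2 with Rnf43 gave the lowest value, -0.32.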

How the data were processed

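The deposited tables hold UMI counts, which the authors made with Cell Ranger (7.0.1 in the file headers) on mm10 with the vendor's mm10 annotation. Kept barcodes had at least 1000 UMIs, a mitochondrial share and a number of detected genes within 3 median absolute deviations, and at least 200 genes. As automatic Scrublet calls were near 0 in 3 libraries, the highest Scrublet scores were removed instead, 0.8% per 1000 barcodes. Each library was clustered alone in scanpy 1.11.5 (2000 variable genes without the 9 genes and the pathway lists, 40 components, 15 neighbours, Leiden resolution 1.0). Clusters were named from marker lists, with score thresholds set after the clusters were seen; this left 2016, 1586, 2923 and 22 mesenchymal, 397, 94, 239 and 673 epithelial and 384, 422, 393 and 307 further cells without a class name. The 9 genes, lists and alternatives were chosen with earlier results of these data known. All 9 genes are named; pathway genes are named where they are among the 3 with the largest ratio in each direction, met the rule in both jaws (or stages) and reached 20 CPM, and, for likeness, the 3 best correlated genes reaching 20 CPM. Wnt16 and the clusters singled out were chosen after their values were seen. The pathway lists hold 12 Frizzled and Lrp receptors, 19 Wnt ligands, 11 beta-catenin targets and feedback genes, 3 Dishevelled adaptors and 3 other R-spondin-binding proteins. The ratio rule was tested on simulated counts, Poisson draws from the summed mesenchyme of the E15.5 maxillary library. The draws held no variation between cells, animals or libraries, so they cannot show how often the rule errs between stages or jaws. The comparisons within papilla-like cells were added after the data were seen.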

Additional observations from a re-analysis of the deposited data

Results flagged for a closer look

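Several log2 ratios had opposite signs in the 2 jaws or at the 2 stages, and none of these differences was tested. Each stage and jaw was 1 library. Between epithelium and mesenchyme, Lgr5 stood at -1.10 in the E15.5 maxillary and 0.78 in the E15.5 mandibular library, and at -0.95 and 0.21 in the P1 maxillary and mandibular libraries. The mandibular values changed sign under other settings, to -0.39 at E15.5 with cells of at least 2000 UMIs and to -0.17 at P1 with the mean of per-cell CPM. Lgr4 stood at 1.17 in the E15.5 maxillary library and at -0.087 and 0.10 in the P1 maxillary and mandibular libraries; without the barcodes shared by the P1 tables the P1 maxillary value was 0.97, of the same sign as at E15.5, and the P1 mandibular value was -0.11 with the mean of per-cell CPM. Lgr6 stood at 0.48 and 1.75 at E15.5 and at -1.44 and -1.77 at P1, so the epithelium held more at E15.5 and the mesenchyme more at P1 in both jaws.

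In dental papilla-like cells Rspo2 stood at 1.10 in the maxillary and -0.74 in the mandibular jaw for P1 over E15.5. For maxillary over mandibular papilla, Rspo2 was at -1.02 at E15.5 and 0.81 at P1, and Rspo4 at -2.57 and 0.33. With the class names held and the barcodes shared by the P1 tables left out, 32 maxillary papilla-like cells remained at P1. They had Rspo4 at 237 CPM from 38 UMIs, below the 328 CPM of the mandibular papilla, the same direction as at E15.5. Rspo2 in them was at 418 CPM from 67 UMIs, above the mandibular 313 CPM. For maxillary over mandibular mesenchyme, Rspo2 was at -0.25 and 0.90 and Rspo4 at -1.33 and 0.42; without the shared barcodes both P1 mesenchyme values were negative, at -1.84 and -6.32. The P1 maxillary papilla values rest on barcodes that the mandibular table holds too. With these added to the mandibular papilla under held class names Rspo2 was at 365 CPM there, and the ratios were -0.52 for stage in the mandibular jaw and 0.59 for jaw at P1; after clustering again, which moved 1000 of 2099 unshared cells out of the class, they were -0.02 and 0.09, and the E15.5 mandibular papilla was 81 cells.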

How the results depend on the processing

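Between stages or jaws, no paired analysis was possible because the groups share fewer than 2 replicate numbers, each stage and jaw being 1 library. A fit of stage with jaw as a term, which 4 libraries would allow with 1 residual degree of freedom, was not run. A comparison of epithelium with mesenchyme paired by library, which the 4 libraries would also allow, was not run. Of 650 log2 ratios of single genes under the alternatives planned at the outset, 606 stayed on the same side of the rule, 25 no longer met it, 15 newly met it and 4 changed sign and met it with one sign or both. Of the 606, 23 changed sign, none of them past the rule. No ratio or count of epithelium or mesenchyme changed its side of the rule at Leiden resolution 2.0, without the limit on detected genes or with the shared barcodes kept in both P1 libraries.

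With the shared barcodes dropped from both P1 libraries, the number of the 9 genes past 2-fold went from 4 to 1 for stage in maxillary epithelium, from 5 to 2 for stage in maxillary mesenchyme and from 2 to 6 for jaw in P1 mesenchyme, where Rspo2 reversed to -1.84 and Rspo4 to -6.32; Lgr5 (stage, maxillary) no longer met the rule, at -0.59 in epithelium and -0.82 in mesenchyme. With each cell thinned to 2000 UMIs the count went from 4 to 1 for stage in maxillary epithelium (of all genes 15% met the rule, against 21.4% before), from 3 to 1 in mandibular epithelium (10.8% against 16.9%), from 5 to 3 for jaw in E15.5 mesenchyme (6.39% against 9.51%) and from 6 to 4 for E15.5 mandibular epithelium over mesenchyme (15.1% against 24.2%), where Rspo1 and Lgr6 no longer met the rule. The Lgr6 ratio of E15.5 mandibular epithelium over mesenchyme itself stayed past 2-fold, at 1.30 or above in each of the 6 alternatives run for it. The shares of all genes come from a second draw, in which the count for mandibular epithelium was 2 and the other 3 counts were the same. In that draw only 5 of the 9 genes in maxillary and 6 in mandibular epithelium had enough UMIs for the rule between stages. Before thinning these were 9 and 8. With doublets kept, stage in mandibular epithelium gave 5 (16.2% of all genes), and Rspo2 in maxillary epithelium reversed to 1.63. With the mean of per-cell CPM, stage in maxillary mesenchyme gave 3 (14.6% of all genes, against 16.5%), and Rspo1 in mandibular epithelium reversed to 0.87.

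Alternatives added after the data were seen kept to 1 class. In papilla-like cells alone, stage in mandibular mesenchyme gave 3 instead of 6 and jaw at P1 1 instead of 2; Lgr6 (stage, maxillary) reversed to -0.52, Rspo2 (stage, mandibular) to -0.74, Rspo1 (jaw, E15.5) to -0.20 and Lgr5 (jaw, P1) to -0.20. In follicle-like cells alone, jaw at E15.5 gave 1 instead of 5; Rnf43 (stage, mandibular) reversed to 1.49, Lgr6 (jaw, E15.5) to -1.44, Rspo2 (jaw, P1) to -1.94 and Rspo4 (jaw, P1) to -3.63. With dental classes only, Lgr5 in P1 mandibular epithelium over mesenchyme reversed to -2.79. With the main class names held and the shared barcodes left out of the maxillary library, the counts were 1 for stage in maxillary epithelium, 2 in maxillary mesenchyme and 6 for jaw in P1 mesenchyme, the same as after clustering again, with Rspo2 reversed to -1.94, Rspo4 to -5.30 and Lgr4 in P1 maxillary epithelium over mesenchyme to 1.08; stage in maxillary follicle-like cells gave 2 instead of 6 either way. The cause of these changes was not tested. Leaving out clusters of low depth moved the count for stage in mandibular epithelium from 3 to 2 (17.3% of all genes) and no other. Levels of 3 UMIs or fewer per class limit what can be said of the R-spondins in epithelium.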
